A study of Homo sapiens with 18 samples.

Results

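The libraries described here are those of HEK293T cells transfected with methionaseNLS and kept in DMSO, taken at 24 h or at 12 h of transfection. They were chosen by the labels alone and make up 6 of the 18 samples of the series, with 3 at each time. The question is how the transcriptome of cells carrying the enzyme developed between the earlier and the later time. HEK293T is a human embryonic kidney line that takes up plasmids readily. Both groups were labelled as wild type in genotype and received the methionase plasmid and the vehicle DMSO, and they differed in time, at 12 h and 24 h. The same step in time was measured in 6 libraries of cells that received the empty vector pLEX and DMSO, also 3 at each time, and these share no library with the methionase comparison. The last 6 samples were given the class 3 PI3K inhibitor Vps34-IN1 and entered none of the comparisons in time. They did enter the estimate of the spread, the filter on low values and the size factors.

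Several features of the design limit what these groups model. The labels give no group with an inactive methionase or another foreign nuclear protein, so the activity of the enzyme and the presence of a foreign nuclear protein cannot be told apart. They name neither the promoter that drives the construct nor the share of cells transfected, and they do not say for how long DMSO was present at 12 h. Each library is a bulk sample, in which fewer cells of a kind and less RNA per cell cannot be told apart. No label says that replicates were grown as separate cultures, and the spread behind each p-value may therefore be a technical one.

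Methionase breaks down methionine, the amino acid that starts most proteins and that supplies S-adenosylmethionine, the methyl donor for histones, DNA and RNA. The construct carries a nuclear localisation signal, which directs a protein to the nucleus. Cells short of an amino acid are known to slow translation through phosphorylation of eIF2α and to raise ATF4, a transcription factor that drives amino acid transporters and synthetic enzymes. A parallel arm, the unfolded protein response, raises the chaperones of the endoplasmic reticulum (ER) when folding there is disturbed. Replication-dependent histone genes are normally tied to S phase, and most of their transcripts end in a stem-loop instead of a poly-A tail, as most small nucleolar RNAs also lack one. The libraries were made from RNA bound by oligo-dT, so such transcripts are seen only as far as they were carried through that step.

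Total reads assigned to genes were 19685333 to 19910221 in the methionase libraries at 12 h and 18850736 to 19031459 at 24 h, and the size factors were 1.04 to 1.08 and 0.935 to 0.985. The median gene's standard deviation between replicates was 0.0688 log2 at 12 h and 0.101 log2 at 24 h. On the first principal component of the 18 libraries, which held 53.2% of the variance, the 12 h methionase libraries lay between -16.99 and -15.77 and the 24 h ones between 17.29 and 23.06. All 11 HEK293T markers were in the table, and the top one was NEFM. The summed level of the 5 blood cell markers in the table, 1 of them at 0 in all 6 libraries, was 50.3 to 89.9 normalised reads over the 6 libraries, that of 3 hepatocyte markers 6.50 to 27.4, that of 5 endothelial markers 8.36 to 20.3 and that of 6 fibroblast markers 619 to 760, mostly COL1A1.

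To show the DNA next to which the later changes were recorded, the 250 bases before the start site are printed for 6 genes, a pair for each of 3 motifs. All come from RefSeq on GRCh38.p14, 5′ to 3′ on the strand of the gene, in lower case with each motif match in capitals. The first pair, HSPA5 (chr9:125241344-125241593, minus strand) and HSP90B1 (chr12:103930160-103930409, plus strand), encode ER chaperones and carry the ER stress element, CCAAT and CCACG with 9 bases between them.
HSPA5: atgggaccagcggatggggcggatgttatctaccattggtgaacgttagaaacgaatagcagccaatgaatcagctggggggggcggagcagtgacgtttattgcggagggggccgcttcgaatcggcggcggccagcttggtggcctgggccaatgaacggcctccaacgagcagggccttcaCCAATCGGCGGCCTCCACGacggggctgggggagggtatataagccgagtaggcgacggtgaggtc
HSP90B1: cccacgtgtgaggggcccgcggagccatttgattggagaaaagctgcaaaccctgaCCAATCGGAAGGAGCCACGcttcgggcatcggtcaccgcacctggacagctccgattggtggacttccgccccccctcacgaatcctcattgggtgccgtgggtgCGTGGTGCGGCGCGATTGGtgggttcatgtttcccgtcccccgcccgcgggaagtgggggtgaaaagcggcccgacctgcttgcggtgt
The second pair, CHAC1 (chr15:40953221-40953470, plus strand) and ASNS (chr7:97872409-97872658, minus strand), belong to the amino acid response and carry TGATGNAA, the core of its response element, on one strand or the other.
CHAC1: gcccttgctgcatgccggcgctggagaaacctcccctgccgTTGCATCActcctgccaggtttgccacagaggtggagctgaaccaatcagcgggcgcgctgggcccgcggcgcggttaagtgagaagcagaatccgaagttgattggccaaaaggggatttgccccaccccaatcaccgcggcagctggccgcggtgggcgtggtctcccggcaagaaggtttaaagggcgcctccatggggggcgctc
ASNS: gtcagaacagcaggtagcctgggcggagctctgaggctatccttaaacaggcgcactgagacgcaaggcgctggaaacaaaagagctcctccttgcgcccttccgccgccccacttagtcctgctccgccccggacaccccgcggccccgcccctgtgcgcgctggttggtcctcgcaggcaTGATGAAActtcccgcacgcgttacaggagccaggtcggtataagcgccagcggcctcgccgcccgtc
The last pair, H2BC21 (chr1:149886683-149886932, minus strand) and H2BC12 (chr6:27146859-27147108, minus strand), encode histone H2B and carry the octamer ATTTGCAT.
H2BC21: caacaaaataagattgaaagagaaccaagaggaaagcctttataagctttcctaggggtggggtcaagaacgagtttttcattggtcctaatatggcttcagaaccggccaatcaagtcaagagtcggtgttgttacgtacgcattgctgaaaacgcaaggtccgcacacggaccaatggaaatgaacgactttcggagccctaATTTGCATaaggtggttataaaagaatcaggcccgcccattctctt
H2BC12: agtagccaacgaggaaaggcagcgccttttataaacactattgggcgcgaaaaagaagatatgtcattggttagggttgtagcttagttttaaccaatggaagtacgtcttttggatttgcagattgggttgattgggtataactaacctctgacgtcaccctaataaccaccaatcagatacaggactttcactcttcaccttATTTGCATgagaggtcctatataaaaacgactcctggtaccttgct
In both H2B promoters the octamer began 46 bases before the start site. Both strands were searched, over windows of 300 bases that run from 250 before to 50 after the start. The ER stress element was present in 6 of 21 promoters of tested ER chaperone genes (28.6%), among them CALR and CANX, against 0.124% of the 12911 promoters of all tested genes. TGATGNAA was present in 5 of 31 promoters of the amino acid response list (16.1%) against 1.77%, and the octamer in 8 of 11 promoters of tested H2B genes (72.7%) against 1.37%. The cyclic AMP response element TGACGTCA was found in 2 of 26 promoters of immediate early genes (7.69%, DUSP1 and JUND) against 3.18%, and the heat shock element in 4 of 19 of the heat shock list (21.1%) against 0.38%. Among the 74 matched promoters of genes higher by at least 1 log2 at 24 h, 7 held the octamer (9.46%), 7 held TGACGTCA (9.46%), 3 held TGATGNAA (4.05%) and 1 held the ER stress element (1.35%). A match is a run of letters and no evidence of binding. H2BC12 also holds TGACGTCA, left in lower case above, away from its octamer.

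Between 12 h and 24 h, 7058 of 17755 tested genes (39.8%) differed in methionase cells at a Benjamini-Hochberg adjusted p below 0.05 in limma. Of these, 3275 (18.4% of those tested) were higher at 24 h and 3783 (21.3%) were lower. Large changes were mostly increases: 125 genes were higher by at least 1 log2 and 14 were lower by as much. Log2 differences were taken after variance stabilisation, where changes of weakly expressed genes appear too small, and normalised reads are counts divided by the library's size factor. With 3 libraries a group, the 24 h libraries all lay above the 12 h ones for 4213 genes (23.7%) and all below for 4663 (26.3%). The 125 large increases comprised 60 protein-coding genes, 29 long non-coding RNA genes, 27 small nucleolar RNA genes and a few of other types, and the 14 large decreases 7 protein-coding genes and 7 pseudogenes.

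The empty vector cells changed less over the same hours, with 2039 genes called (11.5%), 818 higher (4.61%) and 1221 lower (6.88%). Of the genes called in the vector, 65.1% were called in the same direction with methionase, which is 18.8% of the methionase calls. Across all tested genes the log2 differences of the 2 time comparisons had a Pearson r of 0.51 and a Spearman rho of 0.516, as a description over genes, which are not independent replicates. A test of the difference between the 2 changes, the interaction of methionase with time, called 2071 genes (11.7%), 947 with a more positive change with methionase (5.33%) and 1124 with a more negative one (6.33%). Of the 125 large increases with methionase, 119 were called in this test in the same direction. The test contains the change by which the 125 were picked, in the same libraries. The count of 119 is therefore no separate support for a difference from the vector. With library medians set equal, 66.5% of the interaction calls were positive instead of 45.7%, and 27.7% instead of 40.1% of the vector calls were higher. Calls in the vector comparison depended on single libraries: 1028 genes were called without the second 12 h vector library, 833 without the third, 798 without the first 24 h vector library and 1256 without the third. The interaction test called 1276 without the first 12 h methionase library and 1325 without the first 24 h vector library. The plot of the change with methionase against that with the vector shows most histone and snoRNA genes above the line of equal change and most amino acid response genes below it.

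**Figure D1:**
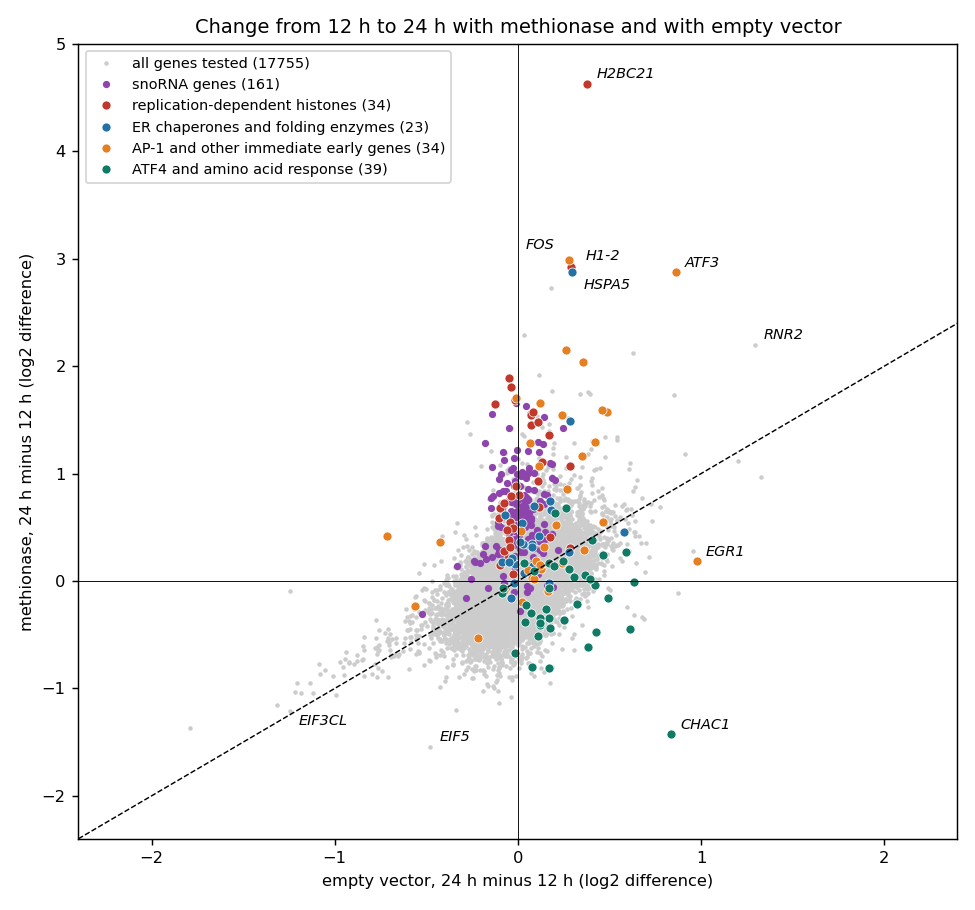
Log2 difference between 24 h and 12 h for each of 17755 tested genes, with the empty vector on the x axis and methionase on the y axis; coloured points are list members and the dashed line marks equal change. H2BC21 lies at 4.63 with methionase and 0.38 with the vector, and CHAC1 at -1.42 and 0.84.

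On the variance-stabilised log2 scale, the largest increase of all tested genes was that of a histone gene, H2BC21. H2BC21 stood at 159, 208 and 170.2 normalised reads in the 12 h libraries and at 7446, 8442 and 3989 in the 24 h libraries. Every 24 h library was above every 12 h library, and the third 24 h library was the lowest of its group. The rise was 37-fold, with a log2 difference of 4.63 ± 0.16 (SE) and an adjusted p of 1.21e-15. In vector cells H2BC21 averaged 137 at 12 h and 199 at 24 h, a difference that was not called (adjusted p = 0.135). The linker histone gene H1-2 went from 310.2, 419.6 and 300.0 to 3453, 3615 and 2415, a log2 difference of 2.92 ± 0.12. H1-4, another linker histone, rose from 5.57, 15.0 and 6.73 to 216, 189 and 119.8, and H2BC12 from 1245, 1250 and 1270 to 2851, 2966 and 2626. The 2 histone promoters printed above thus belong to genes that rose to very different extents, by 4.63 and 1.11 log2.

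Of 62 replication-dependent histone genes in the list, 57 were in the table and 34 passed the filter on low values. Among those 34, 30 rose and 0 fell, with a median of 0.759 log2 against 0.003 over all genes tested, and 26 had a larger rise than in vector cells. Some of the 34 may have passed the filter through their 24 h reads or through the Vps34-IN1 libraries, which also entered it. A count over all 57 is therefore given as well: without the filter 32 were called higher and 0 lower, and the median was 0.329. Of all 37096 genes without the filter, 8.25% were called higher and 9.34% lower. In vector cells 1 of the 34 was called higher and 0 lower, with a median of -0.02. Copies of a histone gene are alike in sequence, and reads could have been divided among them, so the level of a single copy is uncertain. Summed over the 57 genes, the histone share of all reads was 0.0146%, 0.0156% and 0.0142% at 12 h and 0.0865%, 0.0952% and 0.0618% at 24 h. The mean rose 5.49-fold (exact permutation test over libraries, two-sided p = 0.1, the smallest that 3 against 3 can give), while the vector share went from 0.0139% ± 0.0000503 to 0.0163% ± 0.000694 (SD, n = 3).

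Replacement histones, which are made outside S phase, were divided. Of 12 tested, 5 rose and 3 fell, beside 18.4% higher and 21.3% lower of all genes. H2BU1, an H2B gene outside the main clusters, rose from 14.9, 32.8 and 24.0 to 370.0, 523 and 219 normalised reads. The replacement linker histone H1-10 rose by 0.89 ± 0.11 log2. MACROH2A2, a variant with a large extra domain, fell by 0.38 log2 (from 2007 ± 35.8 to 1528 ± 35.1, SD, n = 3), and H3-3A, which encodes histone H3.3, fell by 0.42 log2.

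**Figure D2:**
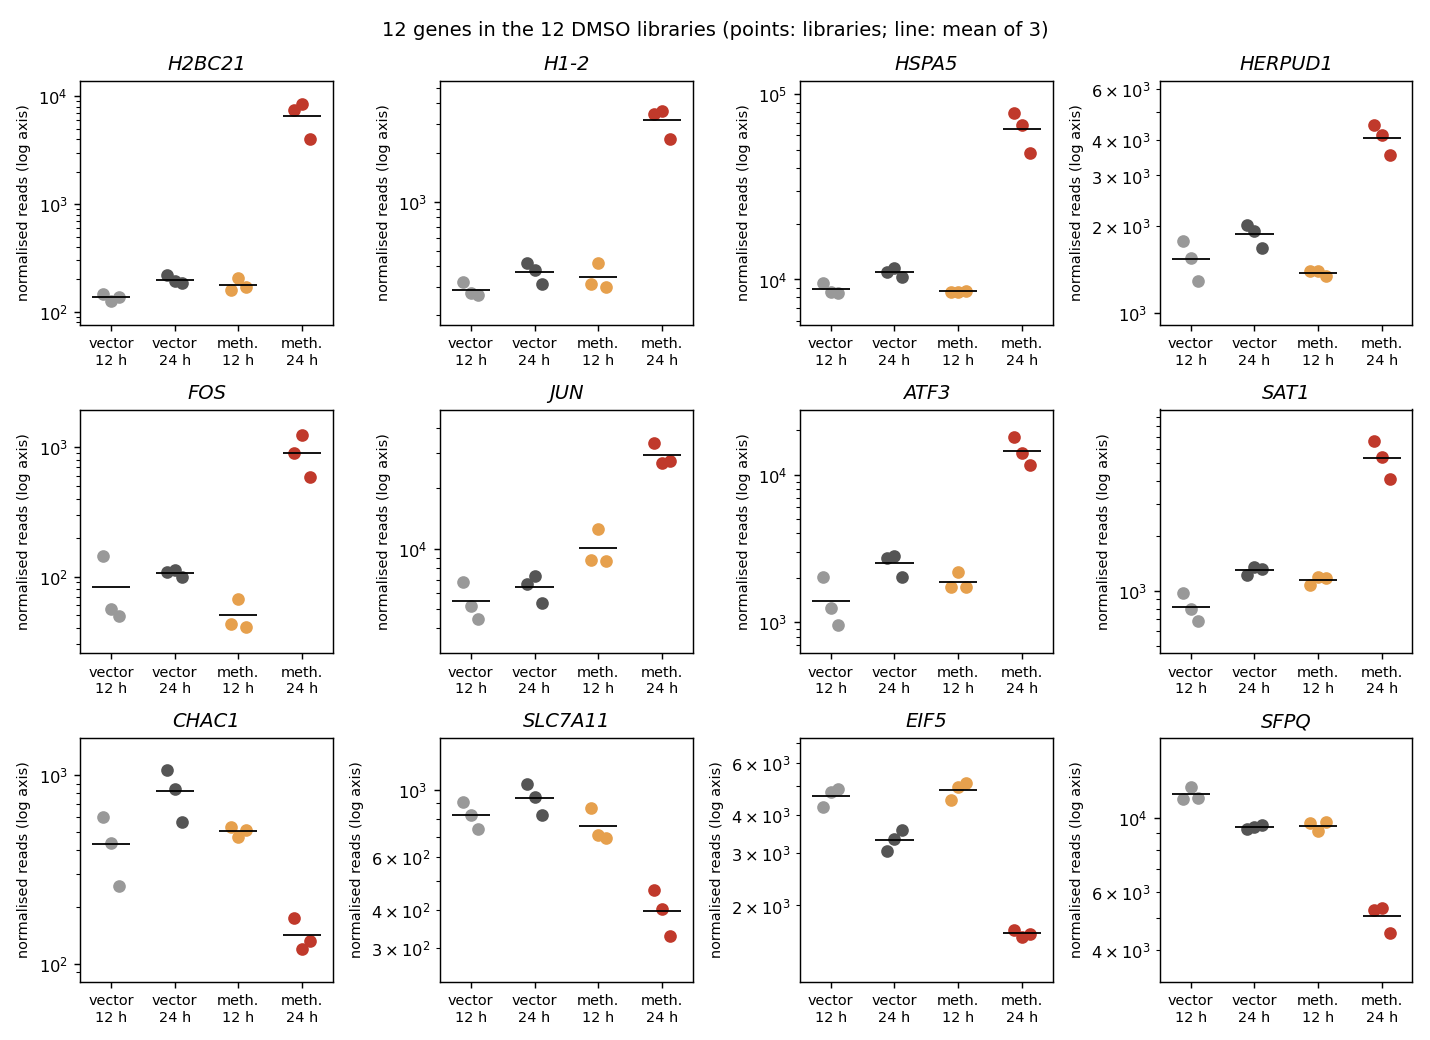
Normalised reads of 12 genes on log axes in the 12 DMSO libraries, as points by library with the mean of each group as a line. In H2BC21, H1-2, HSPA5, HERPUD1, FOS, JUN, ATF3 and SAT1 the 3 methionase libraries at 24 h lie above the other 9, and in CHAC1, SLC7A11, EIF5 and SFPQ below them.

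Small nucleolar RNAs, which guide chemical modification of ribosomal RNA and are mostly cut from the introns of host genes, were often higher at 24 h. This class was singled out after its values had been seen. Of 490 snoRNA genes listed, 161 passed the filter, and of these 127 rose and 2 fell (SNORD17 and the locus LOC124901207), with a median of 0.599 log2 and values from -0.31 to 1.65. Over all 490 without the filter, 142 were called higher (29.0%) and 0 lower, and the median was 0.075. Of all 37096 genes without the filter, 8.25% were called higher and 9.34% lower. In vector cells 0 of the 161 rose and 2 fell, with a median of 0.014. In the interaction test 90 of the 161 had a larger rise with methionase. Among genes that passed the filter, 79 of 99 of the box C/D family were higher (median 0.607) and 44 of 52 of the box H/ACA family (median 0.645). Over all members without the filter these were 82 of 184 (44.6%, median 0.255) and 51 of 130 (39.2%, median 0.181), beside the 8.25% of all genes. SNORD28 went from 34.4, 30.9 and 51.9 normalised reads at 12 h to 195, 389 and 208 at 24 h, with the second 24 h library the highest. SNORD14D, at 9.29, 0.937 and 6.73, reached 70.6, 220.1 and 85.3, and SNORA64 rose from 47.4, 45.0 and 68.3 to 214, 347 and 220.3. No 24 h library overlapped the 12 h libraries in any of these. The share of all reads on snoRNA genes was 0.0178%, 0.0178% and 0.0197% at 12 h and 0.0404%, 0.0730% and 0.0458% at 24 h, a 2.88-fold rise of the mean, and in vector cells 0.0144% and 0.0145%.

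Most of these snoRNAs lie within genes that were also measured. Of the 161, 155 lay inside the span of a tested gene. The surrounding genes numbered 78, of which 42 rose, 6 fell and 30 were not called (median 0.254 log2), beside 18.4% higher and 21.3% lower of all genes. Reads of an unspliced host and of the snoRNA cannot be told apart in such a table. In 106 of the 155 the log2 difference of the snoRNA exceeded that of the gene around it. SNORD14D lies in HSPA8 (a constitutive HSP70 chaperone, 0.63 ± 0.14), and SNORD28 in SNHG1 (1.30 ± 0.11). Of the 125 rising snoRNAs within such a gene, 93 lay in one that rose, 27 in one that was not called and 5 in one that fell. Of 23 tested host genes with SNHG symbols, a set without GAS5 and other non-coding hosts, 4 rose and 0 fell with the vector (median 0.133 log2). With methionase 18 of the 23 rose and 0 fell (median 0.461), and the interaction test called 7 more positive and 0 more negative. The next values are those with methionase. SNHG1 went from 3362 ± 282 to 8516 ± 1713 normalised reads (SD, n = 3), SNHG3 from 3052 ± 114 to 7682 ± 1130, GAS5 from 4967 ± 278 to 10310 ± 1350 and SNHG12 from 498 ± 26.7 to 1056 ± 103.

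Among other nuclear RNAs and RNA-binding proteins, single genes moved in opposite directions. NEAT1, the RNA scaffold of paraspeckles, was low at 12 h (32.5, 10.3 and 22.1 normalised reads) and higher in each 24 h library (96.2, 329 and 249), a log2 difference of 1.74 ± 0.27. The first 24 h library was well below the other two. Of 19 nuclear body and long non-coding RNA genes, 5 rose and 2 fell with the vector (median 0.133). The interaction test called 5 more positive and 3 more negative with methionase. With methionase 12 of the 19 rose and 3 fell, with a median of 0.456. SFPQ, an RNA-binding protein of paraspeckles, was among those that fell, from 9615, 9117 and 9670 to 5301, 5366 and 4516, a log2 difference of -0.90 ± 0.07. Over all long non-coding RNA genes tested, 658 of 2604 rose (25.3%) and 102 fell (3.92%) with methionase, against 18.4% and 21.3% of all genes. After quantile normalization 502 rose and 170 fell (6.53%), and the median went from 0.101 to 0.05. With the vector 127 rose (4.88%) and 5 fell (0.192%), against 4.61% and 6.88% of all genes, with a median of 0.063. The interaction test called 158 more positive (6.07%) and 48 more negative (1.84%), against 5.33% and 6.33% of all genes.

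ER chaperones rose, led by HSPA5, which encodes BiP, the main HSP70 of the ER. HSPA5 stood at 8588, 8603 and 8695 normalised reads at 12 h and at 79150, 67980 and 48210 at 24 h. The 12 h libraries were nearly equal and the 24 h libraries all lay above them, the third the lowest. The log2 difference was 2.87 ± 0.13 (adjusted p = 7.24e-14), and in vector cells it was 0.30 ± 0.13 (adjusted p = 0.135). HERPUD1, a membrane protein of ER-associated degradation, rose from 1397, 1393 and 1343 to 4500, 4133 and 3525, and HSP90B1, the ER form of HSP90, from 13450, 13530 and 14720 to 22900, 23070 and 22000. Of 23 ER chaperones and folding enzymes tested, 16 rose and 0 fell (1 fell without the third 24 h library), with a median of 0.343, and 8 rose more than in vector cells. Of the 6 genes with an ER stress element in the promoter, HSPA5, HSP90B1, CALR and ERO1B were called higher, and CANX and CRELD2 were not called.

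The rest of the ER programme did not move as one. Of 15 ER stress sensors and transducers, 5 rose and 3 fell. PPP1R15A, the phosphatase subunit that reverses eIF2α phosphorylation, went from 596, 553 and 546 to 2007, 2437 and 1833 (1.74 ± 0.14 log2), and BBC3, a pro-death BCL2 relative, rose by 0.77 ± 0.10. EIF2AK3, the ER-resident eIF2α kinase PERK, had a lower level at 24 h, by 0.28 log2 (adjusted p = 0.0112). Listed genes of ER-associated degradation fell more often than they rose, with 9 of 25 lower and 3 higher and a median of -0.066, against 21.3% and 18.4% of all genes. HERPUD1, also of this process, was counted with the chaperones and not here, and rose by 1.49 ± 0.13 log2. The number higher was 1 without the first or the second 12 h library, 6 after quantile normalization and 5 with equal library medians. SEL1L, the scaffold of a main degradation complex, fell by 0.41 log2 and FAF2, which recruits the extracting ATPase, by 0.44 log2. In the list of COPII and Golgi traffic 8 of 25 rose and 3 fell, and SEC24D, a cargo receptor of the COPII coat, rose by 0.61 ± 0.07.

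Listed genes of the amino acid response mostly fell or were not called with methionase and rose or were not called with the vector. Of 39 tested targets of ATF4 and the amino acid response, 18 fell and 5 rose with methionase (median -0.156 log2), beside 21.3% lower and 18.4% higher of all genes. With the vector 14 rose and 0 fell (median 0.198). In the interaction test 17 were more negative with methionase and 0 more positive. These counts depend on which genes the list holds. ATF3, with TGATGNAA in its promoter, and PPP1R15A stood in other lists and had positive interactions of 2.01 and 1.35 log2. DDIT3, described below, was also outside the list. CHAC1, which degrades glutathione, stood at 528, 469 and 513 normalised reads at 12 h and fell to 174, 119 and 131 at 24 h. With the vector it went from 602, 435 and 258 to 1059, 842 and 567. The 24 h methionase libraries thus lay below all others, while the vector libraries of the 2 times overlapped. The 2 changes differed by -2.26 ± 0.28 log2 (limma interaction test, adjusted p = 1.76e-05), the most negative interaction of all tested genes on the variance-stabilised scale.

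Several transporters fell with methionase, without a called change with the vector. SLC7A11, the cystine transporter, fell from 866, 707 and 695 to 466, 403 and 329, and SLC6A9, a glycine transporter, from 777, 715 and 803 to 426, 374 and 416. SLC38A1, a glutamine transporter, fell by 0.67 log2. For the peptide hormone gene ADM2 and the leucine sensor gene SESN2 the log2 differences were -0.45 ± 0.11 and -0.62 ± 0.14 with methionase and 0.61 ± 0.11 and 0.38 ± 0.14 with the vector, of which that of SESN2 with the vector was not called (adjusted p = 0.0832). Exceptions within the list included ASNS, asparagine synthetase, which rose from 175, 174 and 181 to 361, 349.8 and 243. Another was the stress hormone gene GDF15, which rose from 65.9, 81.5 and 45.2 to 182, 96.8 and 151. CHAC1 and ASNS, both with TGATGNAA in the promoter, therefore moved in opposite directions. The mRNA of ATF4 itself gave 0.17 ± 0.09 log2 (adjusted p = 0.123) with methionase and 0.17 ± 0.09 with the vector, neither of them called. The number of list members that rose was 3 without the second or the third 12 h library and 2 without the first 24 h library. DDIT3, the death-promoting factor CHOP, rose in both, by 0.88 ± 0.20 with methionase and by 0.64 ± 0.20 with the vector. Aminoacyl-tRNA synthetases, which load tRNAs and are partly ATF4 targets, were lower in 9 of 23 and higher in 2 with methionase, and lower in 5 without the third 24 h library. MARS1, which loads methionine, fell from 8349 ± 207 to 6752 ± 386 (SD, n = 3).

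**Figure D3:**
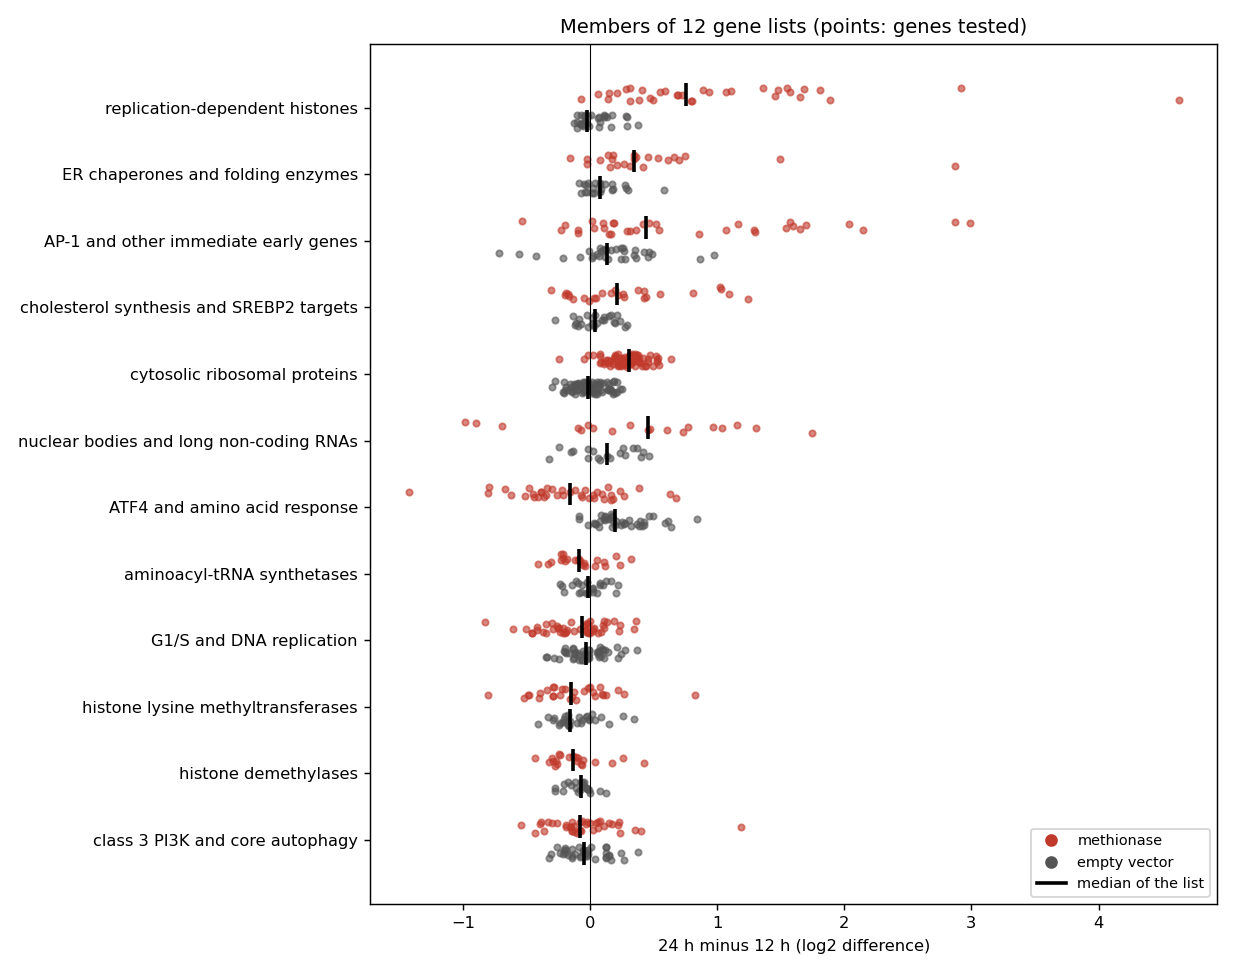
Log2 difference between 24 h and 12 h for the tested members of 12 gene lists, with methionase in red and the empty vector in grey; black bars mark list medians. The tested histone genes have medians of 0.759 with methionase and -0.02 with the vector (0.329 with methionase over all 57 listed in the table), and the amino acid response list -0.156 and 0.198.

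Immediate early genes, the transcription factors and feedback inhibitors that cells switch on within minutes of a stimulus, were largely higher at 24 h. FOS, an AP-1 subunit, went from 42.7, 67.4 and 40.4 normalised reads to 908, 1236 and 585, a log2 difference of 2.99 ± 0.22. Its partner JUN was already abundant and went from 8775, 12570 and 8685 to 33380, 26680 and 27130. ATF3, a stress-induced member of the same leucine zipper family, rose from 1747, 2179 and 1726 to 17930, 13940 and 11650. In all 3 genes the groups did not overlap. ATF3 also rose with the vector, by 0.86 ± 0.22 log2, so that the interaction was 2.01 ± 0.32. Of 34 tested genes of the list, 22 rose and 1 fell, with a median of 0.442 (18 and 3 without the first 24 h library), and 16 had a more positive and 2 a more negative change than with the vector. The nuclear receptor gene NR4A1 rose by 2.04 ± 0.16, the MAP kinase phosphatase gene DUSP1 by 2.15 ± 0.18 and IER2 by 1.29 ± 0.06. The member called lower with all libraries was MYC, a growth-promoting factor, from 6015, 7213 and 6481 to 4866, 4330 and 4333. Of the 34 genes, 11 were not called with methionase, and with the vector 9 rose and 3 fell (median 0.135). EGR1 was not called with methionase (0.18 ± 0.12, limma adjusted p = 0.241) and rose with the vector (0.98 ± 0.12). Without the second 24 h methionase library EGR1 was called, at 0.32 (limma adjusted p = 0.0458).

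Targets of YAP and TEAD, the transcription pair of the Hippo pathway, did not move as a list. Of 24 tested, 7 were higher and 7 lower, beside 18.4% higher and 21.3% lower of all genes. CCN1, a secreted matrix protein, rose from 223, 204 and 205 to 2368, 1624 and 1633, and its relative CCN2 from 29.8 ± 4.42 to 118 ± 40.0 (SD, n = 3). GADD45A, a growth arrest gene that p53 also drives, rose by 1.34 ± 0.13 with methionase and by 0.54 ± 0.13 with the vector. Among p53 targets as a whole 6 of 20 rose and 6 fell, beside the same shares of all genes.

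Sterol synthesis genes rose in part. Of 26 tested genes of cholesterol synthesis and SREBP2, 13 rose and 2 fell with methionase (median 0.21), beside 18.4% higher and 21.3% lower of all genes. The number that fell was 1 without the second or the third 12 h library and 0 without the second 24 h library. MSMO1, a sterol methyl oxidase, went from 1307, 1371 and 1377 to 2793, 3129 and 3049, IDI1, an isomerase of the isoprenoid steps, from 2625, 2958 and 2834 to 5821, 6876 and 7612, and SQLE, squalene epoxidase, from 3799, 4087 and 3845 to 6519, 7065 and 7153. With the vector the log2 differences of these 3 genes were 0.02, 0.19 and 0.11, and none was called. Over the 26 genes, 3 rose and 1 fell with the vector (median 0.037). The interaction test called 8 of the 26 more positive and 2 more negative with methionase.

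TXNIP, an arrestin-like protein that restrains glucose uptake, varied widely at 24 h. It stood at 479, 257 and 387 normalised reads at 12 h and at 844, 1576 and 2175 at 24 h, a log2 difference of 1.76 ± 0.21. The glucose transporter gene SLC2A1 was not called (-0.19 ± 0.09, adjusted p = 0.0924); it averaged 653 and 561 with methionase at 12 h and 24 h and 1299 and 1338 with the vector. When only the libraries compared were fitted, SLC2A1 was called lower (limma adjusted p = 0.0368). HIF1A, the hypoxia factor, fell by 0.58 log2. Of 40 genes of glycolysis and the hypoxia response 12 rose and 6 fell, beside 18.4% higher and 21.3% lower of all genes. The number that rose was 5 to 7 without the first or second 12 h library or the first or second 24 h library.

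Among genes of methionine and its products, SAT1 stood out. It encodes the acetyltransferase that marks spermidine and spermine for export and breakdown, and it went from 1072, 1186 and 1182 normalised reads to 6610, 5406 and 4119. Its rise of 2.12 ± 0.14 log2 exceeded that with the vector (0.63 ± 0.14) by 1.50 ± 0.19. AMD1, which turns S-adenosylmethionine towards polyamines, fell from 3667, 3581 and 3845 to 2558, 2670 and 2584. MTRR, which serves the remaking of methionine from homocysteine, fell by 0.44 log2, and AHCY, which clears S-adenosylhomocysteine, rose by 0.21 ± 0.06. For MAT2A, the synthetase of S-adenosylmethionine, no difference was called: it ranged from 3471 to 4170 at 12 h and from 2946 to 5309 at 24 h, so the groups overlapped. Of the 23 tested genes of this list, 3 rose and 9 fell (median -0.007 log2), beside 18.4% higher and 21.3% lower of all genes. With the vector 1 rose and 2 fell, and the interaction test called 1 more positive and 2 more negative with methionase.

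Enzymes that add or remove methyl groups on histones were lower more often than higher. Of 30 lysine methyltransferase genes 14 fell and 3 rose (median -0.148), and of 21 demethylase genes 10 fell and 2 rose (median -0.137), against 21.3% lower and 18.4% higher of all genes. The rising methyltransferases numbered 1 without the third 12 h library or the second 24 h library and 6 after quantile normalization. The vector lists had medians of -0.16 and -0.067, and the interaction test called 2 methyltransferases in each direction and 2 positive and 1 negative demethylase. SETD7, a lysine methyltransferase, went from 2353, 2267 and 2250 to 1348, 1226 and 1262, and its change differed from that with the vector by -0.70 ± 0.10. NSD1, which methylates histone H3 lysine 36, fell by 0.52 log2, and by 0.29 log2 with the vector. EZH1, a lysine 27 methyltransferase, rose from 1106, 1070 and 1086 to 1773, 2289 and 1958, and KDM6B, which removes lysine 27 methylation, rose by 0.42 ± 0.08. KDM8, a JmjC family member, fell by 0.43 log2. Of 15 genes of DNA methylation and its removal 2 rose and 4 fell, near the shares of all genes, and the interaction test called 2 in each direction. TET1, a methylcytosine dioxygenase, rose by 0.51 ± 0.09, and TDG, which excises its products, fell by 0.73 log2. BRD2, a reader of acetylated histones, rose from 589, 609 and 542 to 2652, 2634 and 2030, while with the vector it averaged 437 and 481.

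PIK3C3, PIK3R4 and BECN1, core genes of the class 3 PI3K complex, fell modestly. PIK3C3, which encodes the lipid kinase VPS34, went from 595, 596 and 566 normalised reads to 419, 419 and 399, a log2 difference of -0.43 ± 0.06, against -0.04 ± 0.06 with the vector. PIK3R4, its scaffold VPS15, went from 1052, 1083 and 1055 to 719, 694 and 696, and BECN1, the third core subunit, fell by 0.39 log2 with methionase and by 0.33 log2 with the vector. The groups did not overlap in any of the 3, with the 24 h libraries lower, as for 26.3% of all genes. Of 39 genes of this complex and of core autophagy, 9 fell and 7 rose, close to the 21.3% lower and 18.4% higher of all genes. The number that rose was 3 without the second 12 h methionase library and 4 without the second 24 h one. GABARAPL1 and GABARAP, which encode ATG8 proteins of the autophagosome membrane, rose by 1.19 ± 0.12 and 0.40 ± 0.06. PPARA, the nuclear receptor that drives fatty acid oxidation in fasting liver, fell from 620.4, 617 and 576 to 376, 335 and 407, while with the vector it averaged 578 and 579.

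Cell cycle genes were lower in part. Of 48 genes of G1/S and DNA replication, 21 fell and 5 rose (median -0.061), and of 30 mitotic genes 8 fell and 7 rose (median -0.035), against 21.3% lower and 18.4% higher of all genes. With the vector 15 of the 30 mitotic genes fell and 0 rose (median -0.204), and the interaction test called 9 more positive and 1 more negative with methionase. BRCA1, a DNA repair gene, went from 2374, 2298 and 2249 to 1262, 1216 and 1320, and UHRF1, which reads hemimethylated DNA, fell by 0.61 log2. Cytosolic heat shock genes were divided, with 6 of 22 higher and 6 lower, and 3 higher without the first 12 h library. HSPA1B, whose reads may be shared with its near-identical copy HSPA1A, went from 184, 220.1 and 284 to 574, 777 and 793, while with the vector 13 of the 22 fell. RRM2, the ribonucleotide reductase subunit of S phase, rose by 0.36 ± 0.06, and CKS2, a small subunit of cyclin-dependent kinases, from 2574, 2547 and 2682 to 5223, 7236 and 6151. CENPF, a kinetochore protein, fell by 0.79 log2 with methionase and 0.51 log2 with the vector.

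Ribosomal protein genes, many of which have pseudogene copies that can share their reads, rose slightly, with 50 of 78 higher and 0 lower and a median of 0.31, but after quantile normalization 13 were higher and 2 lower and the median was 0.078. RPS16 went from 13610 ± 1201 to 19230 ± 759 and RPL12 from 30730 ± 1893 to 44830 ± 4617 normalised reads (SD, n = 3). The mitochondrial ribosomal RNAs rose with both plasmids: RNR2 went from 56100, 49280 and 61920 to 167800, 374900 and 264900 with methionase and by 1.29 ± 0.20 log2 with the vector, and RNR1 by 1.34 ± 0.15 and 0.47 ± 0.15. Together they took 0.358%, 0.324% and 0.383% of reads at 12 h and 0.938%, 2.01% and 1.52% at 24 h. The second 24 h library was highest in mitochondrial rRNA, snoRNA and histone reads, and apart from the histone share, whose mean rose 5.63-fold when mitochondrial reads were left out, the part of mitochondrial reads in the results above was not tested. COX7C, a respiratory chain subunit encoded in the nucleus, rose by 0.59 ± 0.11, and 14 of 43 such genes rose and 3 fell (1 without the third 12 h library, 0 without the third 24 h library). Of 15 mitochondrially encoded RNAs 7 rose and 0 fell with methionase (median 0.502), and with the vector 4 rose and 0 fell (median 0.63). The interaction test called 2 of them more positive and 0 more negative with methionase. After quantile normalization 2 rose with methionase, and 4 rose without the second 12 h library or the second or the third 24 h library.

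**Figure D4:**
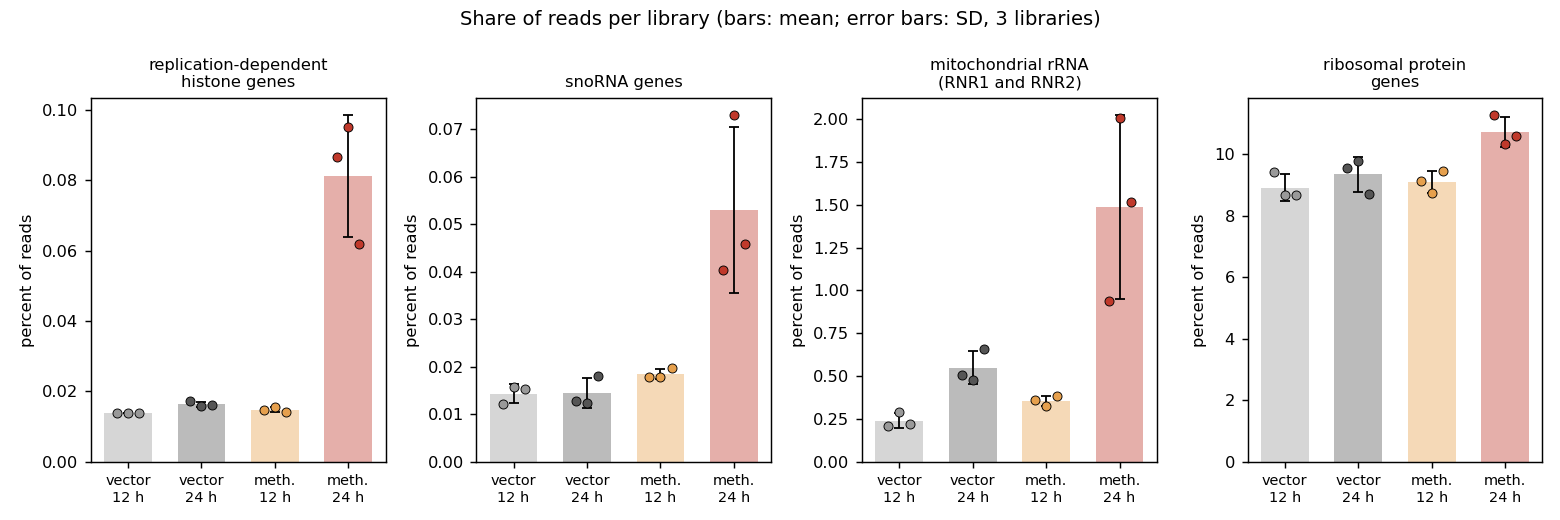
Percent of reads on 4 gene classes in the 12 DMSO libraries, as points by library with bars for the mean and error bars for the SD of 3. The methionase libraries at 24 h hold 0.0618% to 0.0952% on histone genes and 0.938% to 2.01% on mitochondrial rRNA, above the other 9 libraries.

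On the variance-stabilised log2 scale, the largest decrease of all tested genes was that of EIF5. By the ratio of mean normalised reads, CHAC1 (3.56-fold) and EIF3CL (4.21-fold) fell further than EIF5 (3.02-fold). EIF5, which triggers GTP hydrolysis at the start codon, went from 4520, 4962 and 5134 normalised reads to 1655, 1573 and 1609. The 24 h libraries were tightly grouped and lay below every other library. Its log2 difference was -1.54 ± 0.10 with methionase and -0.48 ± 0.10 with the vector, and the interaction was -1.07 ± 0.14. LCMT2, a tRNA-modifying methyltransferase, fell from 426, 384 and 432 to 119.8, 116 and 223, INTS5, a subunit of the Integrator complex that ends small nuclear RNA transcripts, from 539.6, 497 and 524 to 229.9, 168 and 261, and TGS1, which makes the trimethylated cap of small nuclear RNAs, from 846, 742 and 819 to 300.5, 348 and 423. NCOA5, a nuclear receptor coregulator, fell by 1.20 log2 and the splicing factor HNRNPM by 0.99 log2. EIF3CL, a near-identical copy of EIF3C, fell by 1.21 log2 with methionase and by 1.24 log2 with the vector (interaction 0.04 ± 0.16, adjusted p = 0.92), and its own level is uncertain. Of the 14 genes lower by at least 1 log2, 9 were called in the same direction with the vector. The interaction test, which contains the change they were picked by, called 7 as more negative with methionase. EEF2K, the kinase that halts translation elongation, and SLC16A13, a monocarboxylate transporter, fell by 0.85 and 0.95 log2 with methionase, against 0.14 ± 0.08 and 0.18 ± 0.10 with the vector.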

How the data were processed

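RNA-seq of 18 HEK293T libraries was used. Values are in log2 and variance-stabilised, as the authors deposited them in a single table. The submitters' processing notes name STAR 2.7.10b, featureCounts, DESeq2, limma and hg38 with no roles, and the strand setting of the counting is not given in the sources used here. Undoing the transformation gave whole reads for 100.0% of values (within 0.01 of a whole read), and normalised reads and shares come from these. One line without a gene name, at most 0.00216% of reads, was left out.

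The log2 values were fitted with limma 3.58.1 (R 4.3.3), with 1 mean per group over all 18 libraries, a variance trend and Benjamini-Hochberg adjustment over 17755 of 37096 genes. These were the genes with a mean over all 18 libraries at least 0.5 above the lowest value. Scripts were tested on simulated data. The text names the 12 largest changes in each direction with groups that do not overlap, the lowest adjusted p-values of each list, the 8 largest interactions in each direction and a fixed set of genes; snoRNA genes and SNHG3 were added after their values were seen, and a few genes that the rule names are not reported here. Genes and lists were chosen with earlier results of these data known. Gene types and promoters come from RefSeq GRCh38.p14, with 36162 genes matched by symbol. Alternatives covered filters, scaling, weights, voom, the libraries fitted, a replicate block and leaving out each library.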

Additional observations from a re-analysis of the deposited data

Results flagged for a closer look

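For 82 of the 97 genes named, the change from 12 h to 24 h differed between methionase and the empty vector in the interaction test of limma (adjusted p below 0.05 over all genes tested). Over all tested genes the share was 11.7%. The named genes were chosen partly by their interaction values and by large changes with methionase, so the count of 82 was largely set by that choice. Each value is the log2 change with methionase minus that with the vector.

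Among histone genes it was 4.25 for H2BC21, 2.63 for H1-2, 1.94 for H1-4, 0.98 for H2BC12, 2.25 for H2BU1 and 0.72 for H1-10. Among snoRNA genes it was 1.58 for SNORD28, 1.67 for SNORD14D, 1.49 for SNORD58C, 1.18 for SNORA64, 1.47 for SNORA73B and 1.21 for SNORD80. Among nuclear non-coding RNAs and RNA-binding proteins it was 0.90 for SNHG1, 1.23 for SNHG3, 0.62 for GAS5, 0.84 for SNHG12, 1.40 for NEAT1, -0.58 for SFPQ and -0.56 for HNRNPM. Among genes of the ER it was 2.58 for HSPA5, 1.21 for HERPUD1, 0.61 for HSP90B1, 1.35 for PPP1R15A, 0.55 for BBC3, -0.41 for EIF2AK3, -0.39 for SEL1L, -0.31 for FAF2 and 0.32 for SEC24D. Among immediate early and YAP target genes it was 2.71 for FOS, 1.30 for JUN, 2.01 for ATF3, 0.87 for IER2, 1.68 for NR4A1, 1.89 for DUSP1, -0.32 for MYC, -0.80 for EGR1, 2.55 for CCN1, 0.75 for CCN2 and 0.80 for GADD45A. Among amino acid response genes it was -2.26 for CHAC1, -0.97 for SLC7A11, -0.88 for SLC6A9, -0.65 for SLC38A1, -1.06 for ADM2, -1.001 for SESN2 and -0.28 for MARS1. Among genes of sterol, glucose and methionine metabolism it was 1.07 for MSMO1, 1.05 for IDI1, 0.70 for SQLE, 1.38 for TXNIP, -0.33 for HIF1A, 1.50 for SAT1, -0.36 for MTRR and -0.60 for PPARA. Among chromatin genes it was -0.70 for SETD7, -0.43 for KDM8, 0.34 for KDM6B, 0.74 for TET1, -0.47 for TDG and 1.80 for BRD2. Among genes of VPS34 and autophagy it was -0.40 for PIK3C3, -0.28 for PIK3R4, 0.80 for GABARAPL1 and 0.37 for GABARAP. Among cell cycle and heat shock genes it was -0.62 for BRCA1, -0.32 for UHRF1, 0.40 for RRM2, 1.36 for CKS2, 1.63 for HSPA1B and 0.76 for HSPA8. Among ribosomal and mitochondrial genes it was 0.36 for RPS16, 0.41 for RPL12, 0.87 for RNR1, 0.90 for RNR2 and 0.59 for COX7C. Among the other large decreases it was -1.07 for EIF5, -0.86 for NCOA5, -1.03 for LCMT2, -0.91 for INTS5, -0.83 for TGS1, -1.13 for SLC16A13 and -0.99 for EEF2K.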

How the results depend on the processing

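The count of genes called between 12 h and 24 h with methionase, 7058, lay between 5889 and 6495 without single libraries and between 6523 and 7313 under the other settings. The vector count of 2039 was 1290 with no filter on low values, 5186 with array weights, 3507 when only the libraries compared were fitted and 798 to 1696 without single libraries. The interaction count of 2071 was 3617 with array weights and 1276 to 2413 without single libraries. The causes were not tested. With library medians set equal, 54.3% of the methionase calls were higher instead of 46.4%, and after quantile normalization 49.7% of the vector calls instead of 40.1%. Same-numbered replicates did not deviate together (correlations of -0.101, -0.079 and -0.052); a fit with the replicate number as a block called 7006, 1971 and 2009 genes in the methionase, vector and interaction comparisons. Of the 97 genes named, 95 kept their direction and side of the threshold with methionase under all 15 settings, and EGR1 and SLC2A1 became called under 1 setting each. Among tested genes the filter kept means of at least 5.49 normalised reads, which limits what can be seen for histone and snoRNA genes with few reads.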

Other observations

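Genes of the RefSeq type pseudogene, which leaves out transcribed pseudogenes, were lower more often than higher with both plasmids. Of 675 tested, 184 fell (27.3%) and 64 rose (9.48%) with methionase, and 164 fell (24.3%) and 5 rose (0.741%) with the vector, against 21.3% and 6.88% lower of all genes. The medians were -0.09 and -0.097 log2. Reads of such copies may be shared with their parent genes, so their levels are uncertain.

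Lists of other processes gave few or divided calls with methionase, beside 18.4% higher and 21.3% lower of all genes. Of 41 lysosome and V-ATPase genes 11 rose and 9 fell, of 26 glutathione and NRF2 genes 7 rose and 10 fell, and of 16 BCL2 family genes 5 rose and 1 fell. The lysosome genes that fell numbered 5, and the glutathione genes that rose 4, without the first or without the third 12 h library. No BCL2 family gene fell without the first or the second 12 h library or the third 24 h library. Of 17 tested interferon and DNA sensing genes 0 rose and 2 fell in limma (1 fell without the first library of either time, and 1 rose without the third 24 h library), and of 13 NF-kB targets 3 rose and 3 fell.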
